A study of Mus musculus with 6 samples.

Results

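The genes described here are nuclear receptors measured in mouse liver with and without the coactivator SRC-2. They were taken as all probe sets whose platform gene symbol was exactly 1 of 31 listed nuclear receptor genes, which gave 79 of the 45101 probe sets on the array, for 30 of the 31 genes. Nr1h2, the gene of the oxysterol receptor LXR beta, had no such probe set and was not analysed here. RNA came from whole, flash-frozen liver of female mice on a C57 background, with 3 wild-type and 3 SRC-2 null samples and 1 array a sample. Mice of both genotypes were ovariectomized at 6 weeks of age and killed under Avertin anesthesia 2 weeks later. So the controls, like the null animals, lacked ovaries. The labels do not describe the SRC-2 allele, do not name the animals behind the replicate numbers and give no feeding state or time of day.

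Nuclear receptors are transcription factors that bind DNA through a zinc finger domain and, in most members, a small lipophilic ligand through a second domain. Steroid receptors bind DNA mainly as homodimers, while the thyroid hormone, retinoic acid, vitamin D, oxysterol, fatty acid and xenobiotic receptors pair with a retinoid X receptor (RXR). SRC-2, encoded by Ncoa2, belongs to the p160 family, whose members dock on the ligand-bound domain and recruit further coactivators. It acts on the protein of the receptors, so whether the amounts of receptor RNA also differ without it is a separate question. In liver these receptors govern bile acid, sterol, glucose and drug metabolism.

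Ncoa2 was 5.41-fold lower on the null arrays, at 5.63 ± 0.21 against 8.07 ± 0.41 on a log2 scale (SD, n = 3), and the genotypes did not overlap (limma adjusted p = 0.000353). Hepatocyte markers had a mean over 9 genes of 12.8 to 12.9 in both genotypes, with 0 called in limma and 0 at an unadjusted p under 0.05. Markers of Kupffer cells and other macrophages were lower, 14 of 16 being called, and their mean lay at 7.82 to 7.90 on the wild-type and 6.83 to 6.88 on the null arrays. In bulk liver, fewer cells of a type and less RNA per cell cannot be told apart. B and plasma cell markers had a log2 fold change below 0 in 5 of 5 genes, 3 of them called. The adipocyte gene Fabp4 was higher (log2 fold change 1.73) while Retn did not pass (log2 fold change 0.30, adjusted p = 0.242) and Adipoq and Lep lay below the filter on dim genes. Of 12 stellate cell markers 1 was higher (Rgs5), of 11 sinusoidal endothelial markers 1 was higher (Flt1, not called whichever array was left out, adjusted p from 0.0567 to 0.171), and of 4 cholangiocyte markers 2 were lower (Cd24a and Krt19, the latter not called without wild-type replicate 2 or null replicate 1, highest adjusted p = 0.0762). With the replicate number as a block, 2 stellate markers (Acta2, lower, joining Rgs5) and 2 endothelial markers (Lyve1, higher, joining Flt1) passed. The replicate 3 arrays of both genotypes stood apart from replicates 1 and 2, and their deviations from the group means correlated at 0.516 over all genes tested.

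Most nuclear receptor genes differed little in RNA level between the genotypes. After removal of genes with a mean below 4.21, the median of all probe sets, 25 of the 30 genes were tested through their brightest probe set, and 2 were higher in SRC-2 null liver, 0 were lower in limma (1 at an unadjusted p under 0.05) and 23 did not pass. The background was 4.67% of the 11894 genes tested, with 1.55% higher and 3.13% lower, and with so few genes nothing particular to the family is read from the count. At an unadjusted p under 0.05 in limma stood 4 of the 25 receptor genes, against 17.2% of all genes tested. Esr1, the estrogen receptor alpha gene, and Esrra, the gene of the estrogen-related receptor ERR alpha, were the 2 that rose. The absolute log2 difference had a median of 0.10 over the 25 receptor genes and 0.11 over all genes tested. The signed median was -0.03 against 0.00, with 8 receptor genes above 0 and 17 below. For 17 of the 25 the difference was under 1.1-fold.

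On the brightest probe set of each gene, the arrays bounded the difference in signal for most receptors. The standard error of the log2 fold change ran from 0.08 to 0.17 over the 25 genes, with a median of 0.10. In 22 of the 25 the 95% interval lay within 1.5-fold either way, as it did in 86.6% of all genes tested. The 3 exceptions were Esr1, Esrra and Rarb, a retinoic acid receptor gene, whose intervals reached upper ends of 0.64, 0.60 and 0.61. An interval that holds 0 does not show that a level is equal, only how large a difference in signal on that probe set could be. Some other tested sets of these genes were less precise, with an SE of 0.56 on Nr3c1 1421866_at and 0.30 on Hnf4a 1450447_at. On Nr6a1 1428826_at the difference was -0.74 (SE 0.22). For genes close to the filter, such as Esr2 and Ppard, the signal is mostly background, so their RNA difference is not bounded.

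**Figure D1:**
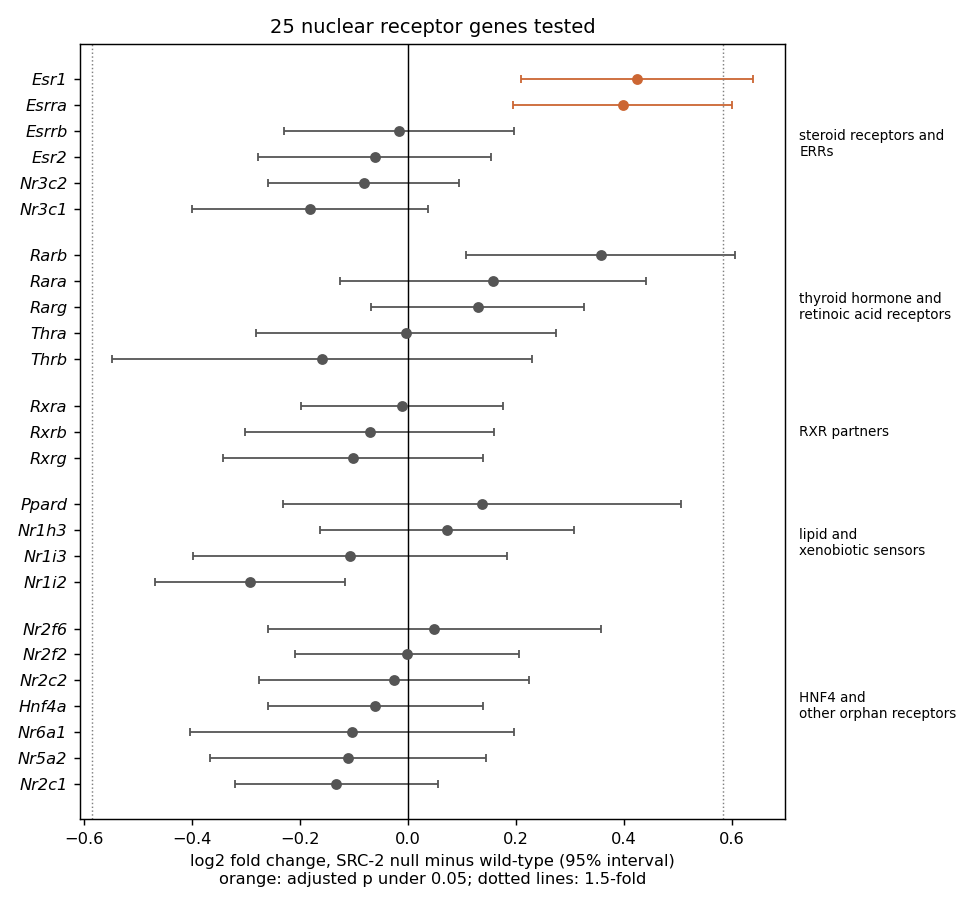
Log2 fold change, SRC-2 null minus wild-type, of the 25 nuclear receptor genes tested, 1 probe set a gene, with 95% intervals from limma on 3 arrays a genotype, grouped by kind of receptor. Esr1 at 0.42 and Esrra at 0.40 (orange) passed at an adjusted p under 0.05, and 22 of the 25 intervals lie between the dotted lines at 1.5-fold.

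Among steroid receptors and the related orphan receptors, 2 of 6 genes tested were called higher and 4 did not pass. Over all genes tested 1.55% were higher, and nothing particular to these 6 is read from the count. Neither call held when any single array was left out, as given below. Esr1, which encodes the main estrogen receptor of hepatocytes, read 8.01, 8.17 and 8.20 in wild-type and 8.49, 8.50 and 8.67 in null liver (probe set 1460591_at). Every null array lay above every wild-type array, with means of 8.13 ± 0.10 and 8.55 ± 0.10 (SD, n = 3). This was a 1.34-fold rise (log2 fold change 0.42, SE 0.09, limma adjusted p = 0.0423), and the null minus wild-type differences within replicates 1, 2 and 3 were 0.47, 0.33 and 0.47. Of the other Esr1 probe sets, 1435663_at read 4.02, 3.99 and 3.96 against 4.81, 4.53 and 4.04. Its groups did not overlap either, but null replicate 3 stayed close to the wild-type arrays, and the difference of 0.47 had an adjusted p of 0.307 over all probe sets. The remaining set, 1421244_at, lay below the filter.

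Esrra encodes an orphan receptor that drives genes of mitochondrial energy metabolism together with the coactivator PGC-1 alpha. Its brightest probe set, 1460652_at, read 7.17, 7.29 and 7.05 in wild-type and 7.56, 7.58 and 7.56 in null liver. The null arrays lay close together and all above the wild-type arrays, with means of 7.17 ± 0.12 and 7.57 ± 0.01 (SD, n = 3). The rise was 1.32-fold (log2 fold change 0.40, SE 0.09, limma adjusted p = 0.0427), with differences of 0.39, 0.29 and 0.51 within replicates 1, 2 and 3. A dimmer set, 1442864_at, read 5.26, 4.92 and 4.87 against 5.08, 5.68 and 5.43. It moved by 0.38 in the same direction, but its groups overlapped because null replicate 1 lay below wild-type replicate 1.

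Both calls sat close to the threshold. Whichever single array was left out, neither gene passed, with adjusted p from 0.0615 to 0.148 for Esr1 and from 0.0725 to 0.143 for Esrra. Both also missed the threshold when the probe sets of each gene were averaged (adjusted p = 0.106 for Esr1 and 0.075 for Esrra) and when every probe set was tested on its own (0.0822 and 0.0829), where limma called 0 of the 49 receptor sets, 7 of them at an unadjusted p under 0.05. The background over the 19623 probe sets tested was 2.41%, and groups did not overlap for 8 of the 49 receptor sets against 20.3% of all sets. Counted over genes, an unadjusted p under 0.05 in limma was common, at 17.2% of all genes tested. The rise kept its direction in all 15 alternatives for each gene, between 0.31 and 0.46 for Esr1 and between 0.34 and 0.46 for Esrra. Macrophage markers, B and plasma cell markers and Fabp4 differed in the same livers, as given above, and their part in these differences was not tested.

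**Figure D2:**
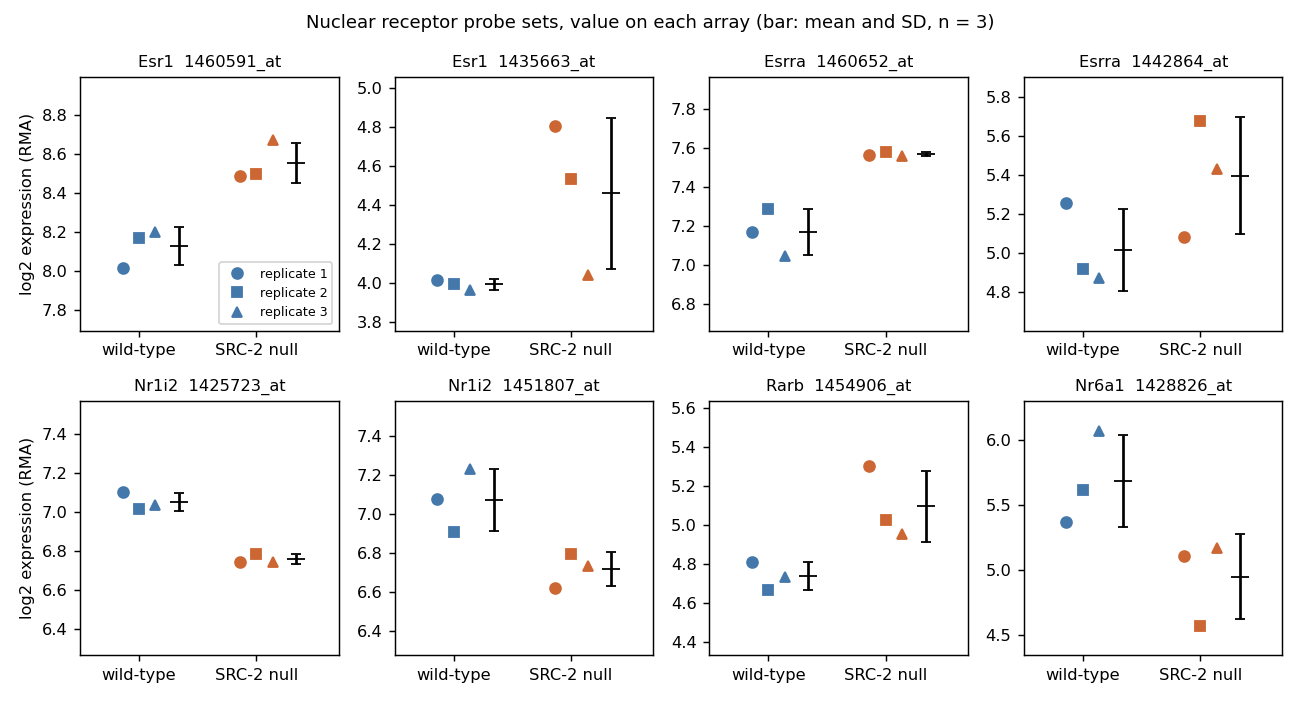
Log2 expression on each array for 8 nuclear receptor probe sets, wild-type in blue and SRC-2 null in orange, with the replicate number by marker shape and the mean and SD (n = 3) as a bar; the y axes start at different values. In 7 of the 8 panels the genotypes do not overlap, while in the dimmer Esrra set, 1442864_at, null replicate 1 lies among the wild-type arrays. The panels were chosen after their values were seen, so this count does not describe the family. Among all 49 tested receptor sets, the null arrays lay wholly above wild-type in 5 and wholly below in 3. Separation of this kind occurred in 20.3% of all probe sets tested.

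The other steroid receptor genes did not pass. Nr3c1, the glucocorticoid receptor gene, read 8.35, 8.36 and 8.16 in wild-type and 8.18, 8.16 and 8.00 in null liver on its brightest probe set. Its differences within replicates 1, 2 and 3 were -0.17, -0.21 and -0.16, all below 0, but the groups overlapped through wild-type replicate 3 and the adjusted p was 0.393 (log2 fold change -0.18, SE 0.10). Nr3c2, the mineralocorticoid receptor gene, differed by -0.08 (SE 0.08). Esr2, which encodes estrogen receptor beta, lay just above the filter at a mean of 4.24 and differed by -0.06 (SE 0.09). Esrrb, for ERR beta, differed by -0.02, and that value rests on 1441921_x_at, a set of a kind that can detect related transcripts, since its other 2 sets lay below the filter.

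Of the thyroid hormone and retinoic acid receptors 5 genes were tested and 0 passed in limma, with 1 at an unadjusted p under 0.05. That gene was Rarb, whose product is a retinoic acid receptor that is itself induced by retinoic acid. It read 4.81, 4.67 and 4.74 in wild-type and 5.30, 5.03 and 4.96 in null liver, with every null array above every wild-type array. The difference was 1.28-fold (log2 fold change 0.36, SE 0.11, adjusted p = 0.129) and lay above 0 within each replicate number, at 0.49, 0.36 and 0.22. Groups that do not overlap were common, at 23.4% of all genes tested, and occurred in 5 of the 25 receptor genes, namely Esr1, Esrra, Rarb and Rarg above wild-type and Nr1i2 below.

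Rarb is shown with the upstream sequence of its start site because it carries a well-known retinoic acid response element, a direct repeat of receptor half-sites with a 5-base spacer (DR5). The other gene shown, Cyp26a1, encodes the enzyme that degrades retinoic acid and is the called gene among the retinoid targets listed for this work. Both sequences are the 250 bases before the RefSeq start site in GRCm38.p6, 5′ to 3′ on the gene's strand, with the half-sites that a search found in capitals.
Rarb, chr14:16575477-16575726, minus strand: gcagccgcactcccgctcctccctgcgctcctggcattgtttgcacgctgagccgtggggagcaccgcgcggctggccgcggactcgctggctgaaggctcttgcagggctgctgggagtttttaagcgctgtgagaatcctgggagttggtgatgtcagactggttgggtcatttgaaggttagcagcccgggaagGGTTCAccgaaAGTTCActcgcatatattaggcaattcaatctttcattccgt
Cyp26a1, chr19:37697558-37697807, plus strand: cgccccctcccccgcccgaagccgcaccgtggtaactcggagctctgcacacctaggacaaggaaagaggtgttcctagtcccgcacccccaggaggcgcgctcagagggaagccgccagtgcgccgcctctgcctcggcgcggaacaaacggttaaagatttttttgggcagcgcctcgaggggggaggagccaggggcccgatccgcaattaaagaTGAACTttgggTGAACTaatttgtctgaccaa

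The Rarb match spans bases -53 to -37 from the start site on the gene's strand, and the Cyp26a1 match spans -32 to -16 on the opposite strand. The search allowed A or G as the first base of each half-site and G or T as the third. On both strands, a DR5 match stood in 32 of 32851 RefSeq promoter windows of 300 bases, or 0.0974%, and among the 46 windows of 28 receptor genes the Rarb window was the 1 that held it. That element was known beforehand and the pattern admits it, so its match is not a finding of the search. Cyp26a1 was taken from a list of retinoid targets, so its match is not read as a finding either. The other listed retinoid targets with a window held no DR5 match. Repeats with spacers of 1 and 4 bases stood in 0 of the 46 windows. A match is a description of letters and says nothing of binding in these livers. Beside it, the RNA of the genes did not move alike: Cyp26a1 fell 2.03-fold (log2 fold change -1.02, SE 0.08, adjusted p = 0.000271), while Rarb differed by 0.36 upward without passing. The single half-site AGGTCA, a stricter pattern searched on both strands, stood in 16.3% of all windows and in 7 of the 46 receptor windows (15.2%). By gene, it stood in 18.1% of all genes and in 7 of the 28 receptor genes (25%). It was not among the letters of the Esr1, Esrra or Nr1i2 windows, nor of the Rarb window that holds the DR5. Variant half-sites were not searched singly.

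On their brightest probe sets, the remaining retinoic acid and thyroid hormone receptor genes lay closer together between genotypes. Rarg read 5.57, 5.73 and 5.72 in wild-type and 5.78, 5.75 and 5.87 in null liver. The groups did not overlap, but the highest wild-type and the lowest null array, both replicate 2, lay close together, and the log2 fold change was 0.13 (SE 0.09, adjusted p = 0.517). Rara differed by 0.16 (SE 0.12), with 0.36 and 0.31 in replicates 1 and 2 but -0.20 in replicate 3. Thra, whose product is the thyroid hormone receptor of heart and brain above all, differed by -0.00 (SE 0.12) on its brightest set. Its other tested sets, 1454675_at and 1426997_at, differed by 0.08 (SE 0.14) and 0.32 (SE 0.19). The groups overlapped on each set. Thrb, the gene of the main hepatic thyroid hormone receptor, was measured by 1 dim set at 4.57, 4.96 and 4.67 against 4.82, 4.69 and 4.22. Its groups overlapped and its interval was the widest of the family, from -0.55 to 0.23.

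The RXR genes, which encode the shared partners of many of these receptors, did not pass in any of 3 cases in limma (0 at an unadjusted p under 0.05). Rxra, the predominant RXR gene of liver, read 9.59, 9.54 and 9.63 in wild-type and 9.49, 9.62 and 9.62 in null liver. The ranges overlapped, null replicate 1 being the lowest array and wild-type replicate 3 the highest, and the 95% interval of the difference, -0.20 to 0.18, was among the narrow ones. Rxrb and Rxrg differed by -0.07 (SE 0.10) and -0.10 (SE 0.10).

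Of the lipid and xenobiotic sensors 4 genes were tested and 0 passed in limma, with Nr1i2 at an unadjusted p under 0.05. Nr1i2 encodes PXR, the pregnane X receptor, which senses drugs and bile acids and induces drug-metabolizing enzymes. Its brightest set, 1425723_at, read 7.10, 7.01 and 7.04 in wild-type and 6.74, 6.79 and 6.75 in null liver, and its other set, 1451807_at, read 7.08, 6.91 and 7.23 against 6.62, 6.80 and 6.74. On both sets every null array lay below every wild-type array. The differences were -0.29 (SE 0.08, adjusted p = 0.0802 over genes) and -0.35 (SE 0.11, adjusted p = 0.191 over probe sets), and on the brightest set they were -0.36, -0.23 and -0.29 within replicates 1, 2 and 3. Nr1i2 passed in 2 of 15 alternatives, with a filter at 6 (adjusted p = 0.038) and with a term for replicate 3 (adjusted p = 0.0399), and lay below 0 in all 15.

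Nr1i3, for the constitutive androstane receptor CAR, which shares many target genes with PXR, read 9.76, 9.74 and 9.49 in wild-type and 9.69, 9.65 and 9.32 in null liver. The groups overlapped, with replicate 3 lowest in each genotype, and the log2 fold change was -0.11 (SE 0.13). Nr1h3, the gene of the oxysterol receptor LXR alpha, which hepatocytes and Kupffer cells both express, read 8.24, 8.31 and 8.00 against 8.21, 8.33 and 8.23. It differed by 0.07 (95% interval -0.16 to 0.31) in the livers in which 14 of 16 macrophage markers were lower. Ppard, for the fatty acid receptor PPAR delta, differed by 0.14 on its brighter set (SE 0.16) and by -0.11 on the other, both close to the filter.

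Of the HNF4 and other orphan receptors 7 genes were tested and 0 passed in limma (0 at an unadjusted p under 0.05). Hnf4a, which maintains hepatocyte identity, read 11.05, 11.04 and 11.08 in wild-type and 10.90, 10.97 and 11.12 in null liver on 1427001_s_at. The ranges overlapped and the interval ran from -0.26 to 0.14. Nr5a2, for LRH-1, a regulator of bile acid synthesis, read 8.18, 8.21 and 8.43 against 8.11, 8.04 and 8.34. These are values of its brightest set, 1456521_at, which differed by -0.08, -0.17 and -0.09 within replicates 1, 2 and 3. The spread between replicates was larger, and Nr5a2 did not pass (log2 fold change -0.11, SE 0.11). Its other tested sets, 1420410_at and 1449706_s_at, differed by 0.01 (SE 0.14) and 0.04 (SE 0.10). Nr2c1, for the orphan receptor TR2, differed by -0.13 (SE 0.08), with all 3 tested sets below 0. Nr2c2, Nr2f2 and Nr2f6, for TR4, COUP-TFII and EAR2, differed by -0.03, -0.00 and 0.05, and their intervals all held 0.

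Nr6a1, which encodes the germ cell nuclear factor, gave different answers by probe set. Its brightest set, 1428825_at, differed by -0.10 (SE 0.13), while 1428826_at read 5.37, 5.62 and 6.07 in wild-type and 5.10, 4.57 and 5.17 in null liver. On the latter no null array reached the wild-type range, and the difference of -0.74 (SE 0.22, adjusted p = 0.174 over probe sets) had the greatest size of all 49 tested receptor sets. The other tested set, 1421516_at, differed by 0.10. The sets were chosen for mention after their values were seen, and the transcripts each detects were not examined.

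Of the 14 receptor genes with several tested probe sets, 6 had all sets on the same side of 0, namely Esr1, Esrra, Rarg, Nr1i2, Nr2c1 and Nr2f6. In the other 8 the sets fell on both sides of 0, and 0 of these 8 genes passed in the gene test. For Hnf4a the 4 sets lay between -0.06 and 0.14, and for Nr3c1 between -0.18 and 0.18.

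**Figure D3:**
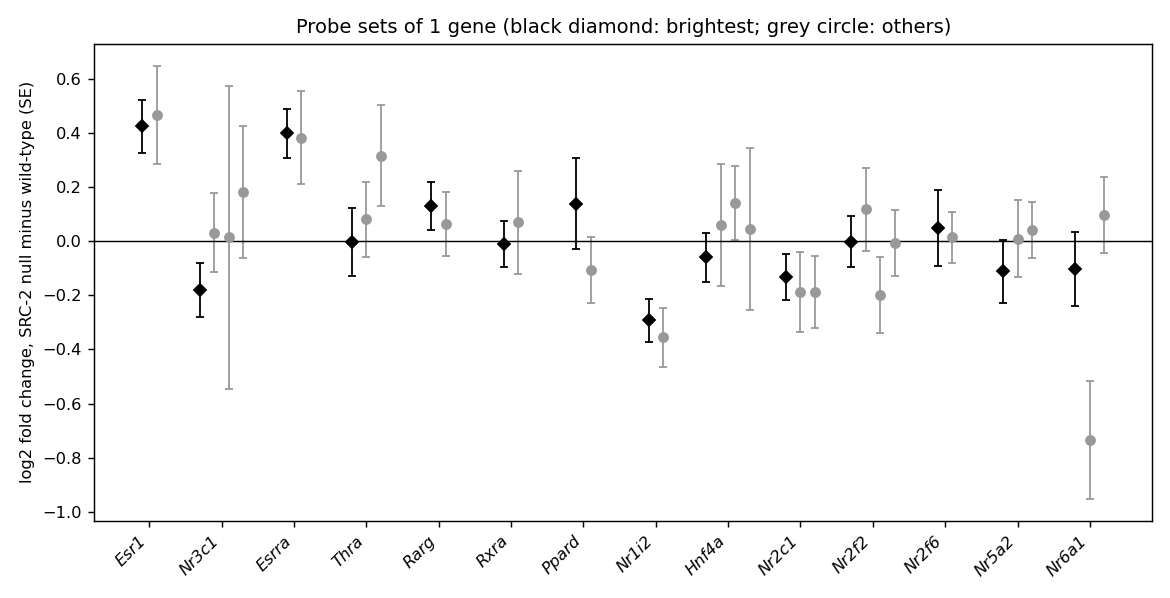
Log2 fold change, SRC-2 null minus wild-type, with its SE, of each tested probe set in the 14 receptor genes that have several; the black diamond is the brightest set and grey circles are the others. The sets of Esr1, Esrra and Nr1i2 stand together, while 1 grey point of Nr6a1 lies at -0.74, away from the others.

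Differences between replicate numbers exceeded those between genotypes for several receptor probe sets. On 1421866_at, a set of the glucocorticoid receptor gene Nr3c1, the arrays read 5.82, 5.94 and 4.41 in wild-type and 5.88, 6.08 and 4.26 in null liver. Replicate 3 was far below the others in each genotype, the difference being -1.47 in wild-type and -1.72 in null liver, while the genotypes differed by 0.01. The Hnf4a sets 1450447_at and 1421983_s_at behaved alike, with replicate 3 differences of -0.83 and -0.58 in wild-type and -0.82 and -0.65 in null liver, whereas those of the brightest Hnf4a set were 0.04 and 0.18. Over the 79 receptor probe sets, replicate 3 deviated in the same direction in both genotypes for 55, and by over 0.4 in both for 4. The set of these not yet named, 1454167_at of Nr2c2, was higher in replicate 3 (0.47 in wild-type, 0.57 in null liver) and lay below the filter. Such counts were not taken over all probe sets, so nothing particular to the receptors is read from them. What distinguishes the replicate 3 arrays is not in the labels. In replicates 1 and 2 only, limma called neither Esr1 (adjusted p = 0.106) nor Esrra (adjusted p = 0.125), while both were called with a term for replicate 3 (adjusted p = 0.0151 and 0.0217).

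**Figure D4:**
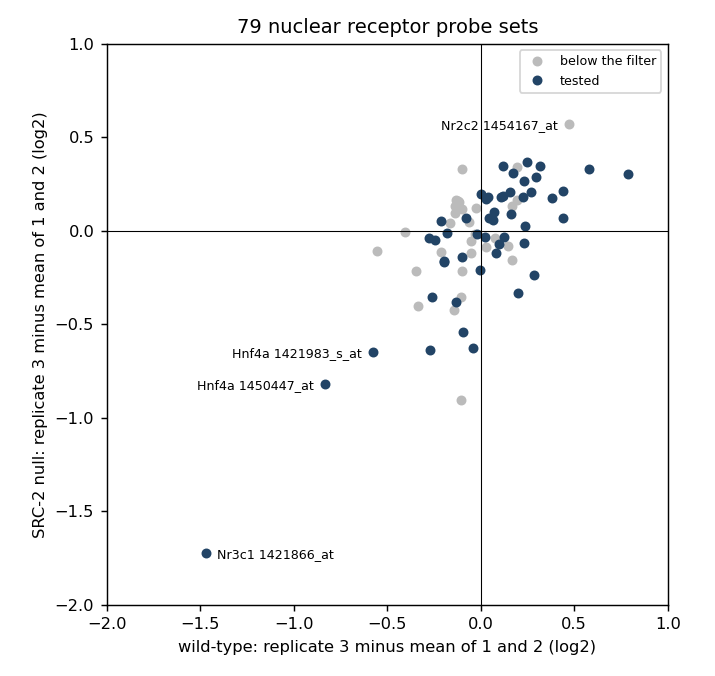
Difference of replicate 3 from the mean of replicates 1 and 2 (log2) for the 79 receptor probe sets, wild-type on the x axis and SRC-2 null on the y axis, with sets below the filter in grey. The Nr3c1 set 1421866_at lies at -1.47 and -1.72, and the labelled Hnf4a sets follow the same diagonal.

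In 5 receptor genes every probe set lay below the filter, so they were not tested: Pgr, Esrrg, Vdr, Hnf4g and Nr2f1, for the progesterone receptor, ERR gamma, the vitamin D receptor, HNF4 gamma and COUP-TFI. A low value on this scale is mostly background and is not read as absence. With no filter all 30 genes could be tested, and the brightest sets of these 5 differed by -0.17 for Pgr, 0.01 for Esrrg, 0.17 for Vdr, 0.11 for Hnf4g and 0.01 for Nr2f1, with adjusted p from 0.519 to 0.975. The dimmer Esrrg sets read 3.46, 3.63 and 3.43 against 3.04, 3.15 and 3.25 (1455267_at) and 3.26, 3.71 and 3.46 against 2.67, 3.21 and 3.07 (1457896_at). On both, the null arrays lay below the wild-type arrays, at levels where background dominates.

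The nuclear receptor genes outside the 31 were set beside them from a list of 17, of which 11 were tested. Nr0b2, the gene of SHP, a receptor without a DNA-binding domain that represses other receptors including LRH-1, fell 1.93-fold from 8.09 to 7.14 (log2 fold change -0.95, SE 0.10, adjusted p = 0.00127). The other 10 did not pass, and the list had a median of -0.06. Of 16 coactivator and corepressor genes 1 fell, Ncoa2 itself, and with the replicate number as a block 2 were lower. The related coactivator genes Ncoa1 and Ncoa3 differed by -0.13 (SE 0.09, adjusted p = 0.538) and -0.27 (SE 0.12, adjusted p = 0.314).

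Lists of known target genes of the receptors were set beside them, and in 5 of 9 lists the called genes went both ways. Over all genes tested, 1.55% were higher and 3.13% lower. Of 14 LXR targets 5 fell and 1 rose (median -0.12), led by Fasn (1.78-fold lower), Srebf1 (1.95-fold lower) and Lpl (1.87-fold higher), while Nr1h3 differed by 0.07. Of 11 thyroid hormone targets 5 fell (median -0.41), led by Thrsp (3.56-fold), the deiodinase gene Dio1 (1.86-fold) and G6pc (1.64-fold). Whichever array was left out 4 of the 11 passed, and in replicates 1 and 2 only 3 passed. Of 7 LRH-1 targets 4 fell and 1 rose (median -0.56), Nr0b2 and Abcg5 falling and the sterol hydroxylase gene Cyp8b1 rising 1.58-fold. Nr5a2 differed by -0.11 on its brightest set and by 0.01 and 0.04 on the others tested. Some genes stand in more than 1 list.

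Of 10 estrogen receptor targets 4 fell and 1 rose (median -0.28), beside the rise of Esr1. Cyp17a1 was 2.35-fold lower, Serpina6 1.71-fold lower and Tff3 2.36-fold higher. When each array was left out 4 to 5 of the 10 passed, and in replicates 1 and 2 only 3 passed. Of 14 ERR targets 2 fell and 0 rose in limma (3 higher at an unadjusted p under 0.05), with a median of 0.12. These were the pyruvate dehydrogenase kinase gene Pdk4 (1.94-fold lower) and Cs, citrate synthase (1.47-fold lower), and Cs did not pass without wild-type replicate 1, 2 or 3 or null replicate 1 or 2 (adjusted p from 0.0559 to 0.109). Of 14 CAR and PXR targets 2 rose and 1 fell (median -0.02), the heme synthesis gene Alas1 rising 1.61-fold, the carboxylesterase gene Ces2a 1.41-fold and the glutathione transferase gene Gstm3 falling 2.40-fold. Ces2a passed in none of the fits without 1 array (adjusted p from 0.0508 to 0.12).

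Of 15 glucocorticoid receptor targets 3 fell, namely Dusp1 (2.45-fold), Zbtb16 (1.56-fold) and Cdkn1a (log2 fold change -0.59), and the median was -0.19. When wild-type replicate 1 or either of null replicates 1 and 2 was left out, 1 of the 15 passed. Cdkn1a was lost without any array but null replicate 3 (highest adjusted p = 0.147), and Zbtb16 without those 3 arrays (highest adjusted p = 0.0887). Of 14 HNF4 alpha targets 3 rose and 1 fell (median 0.01), with Cyp2d9 2.57-fold higher, Cyp8b1 higher and Ugt2b1 1.35-fold lower. Without wild-type replicate 1 or 2 or null replicate 2 or 3, 2 of the 14 passed, and Ugt2b1 was lost in each of these fits (highest adjusted p = 0.0964). Of 9 retinoid targets 1 fell, Cyp26a1, and 8 did not pass (median -0.02). The lists were not tested as sets, and whether a receptor acts on these genes in these livers was not measured.

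**Figure D5:**
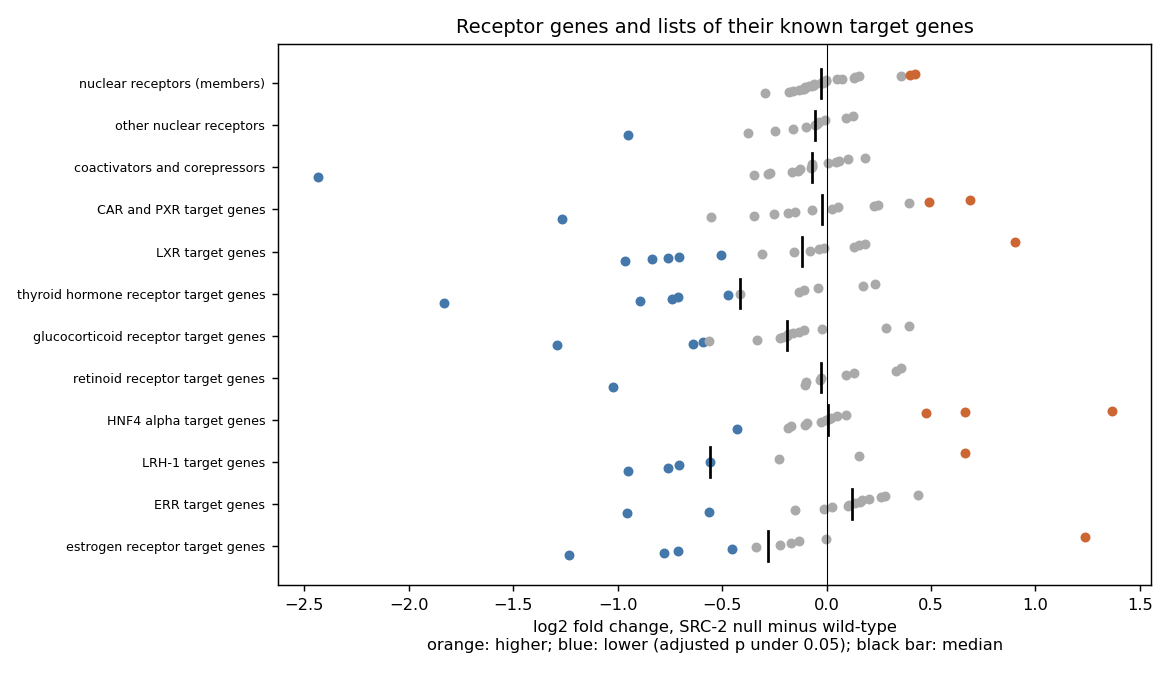
Log2 fold change, SRC-2 null minus wild-type, of each tested gene (points) and the median (black bar) for the 25 receptor genes, other receptors, coregulators and 9 lists of known receptor targets; orange is higher and blue lower at an adjusted p under 0.05. The receptor genes lie between -0.29 and 0.42, while target lists hold points from -1.83 (Thrsp) to 1.36 (Cyp2d9).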

How the data were processed

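Total RNA was labelled with biotin and hybridised to short oligonucleotide arrays, per the labels' protocols. The values are log2 expression values that the authors deposited, which per the submitters' processing notes come from RMA (robust multi-array average). The RMA version was not given in the sources used here, nor was a build. RMA background correction and quantile normalization compress folds at low levels. Gene symbols came from the platform annotation: of 45101 probe sets, 34945 had 1 symbol, 932 several, 9160 none and 64 were controls. The brightest probe set of each of 18193 genes was kept, and 11894 genes with a mean at or above 4.21 were tested with limma 3.58.1 in R 4.3.3 (two-sided, genotype as the only term, Benjamini-Hochberg, threshold 0.05); 19623 probe sets were also tested singly. Limma was tested on simulated data. Samples were grouped by their labels. The p-values set the genotype difference against the spread between samples of a genotype. Nothing says that replicates are separate animals, so that spread may be only technical. The replicate 3 arrays of the genotypes deviated together (correlation 0.516). For replicates 1 and 2 the same-numbered correlations were 0.18 and 0.203. Wild-type replicate 1 correlated at 0.206 with null replicate 2, and wild-type replicate 2 at 0.166 with null replicate 1. The data therefore do not pair replicates 1 and 2 by number. The replicate block was an alternative, as were probe set choice, filter, variance model, renormalization and leaving out arrays. Named genes were all 31 receptors, Ncoa1 to Ncoa3, and up to 3 genes with the smallest p of each list (called genes only, except for cell markers). The members and lists were chosen with earlier results of these data known. Promoter sequences came from RefSeq (GRCm38.p6), matched by symbol for 28 of 31 genes. Figures were drawn with matplotlib 3.10.9.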

Additional observations from a re-analysis of the deposited data

How the results depend on the processing

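The number of nuclear receptor genes called, 2, was 0 with the mean of all probe sets, with no filter on dim genes and in replicates 1 and 2 only, 1 (Esr1) when values were quantile normalized again, and 0 to 0 when each array was left out; the same numbers hold for receptor genes higher in SRC-2 null. Receptor genes lower numbered 1 (Nr1i2) with the filter at 6 and with a term for replicate 3, and 0 to 0 when each array was left out. With the replicate block Esr1 and Esrra both stayed called (adjusted p = 0.0253 and 0.0356), and the block changed no call of a receptor gene. All genes called, 556, numbered 982 with a term for replicate 3, 329 in replicates 1 and 2 only and 275 to 438 when each array was left out. Genes higher, 184, numbered 307 with the replicate block, 375 with a term for replicate 3, 95 in replicates 1 and 2 only and 65 to 174 when each array was left out. Genes lower, 372, numbered 607 with that term, 234 in replicates 1 and 2 only and 210 to 315 when each array was left out. The cause of these shifts was not tested. Some of these fits held fewer arrays or another set of genes. Those with the replicate block or the term for replicate 3 held the same arrays and genes. For single receptor genes no called value changed sign under the alternatives. With 3 arrays a genotype, many true differences near 1.3-fold would be missed, and sets near 4.21 hold mostly background.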
